A study of Homo sapiens with 6 samples.

Results

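The genes described here are 8 phagocytosis receptors and bridging ligands among the 21314 entries of an RNA sequencing series on ARPE-19, a line of human retinal pigment epithelial cells that grows in culture. They are the TAM receptors TYRO3, AXL and MERTK, the TAM ligands GAS6 and PROS1, the integrin bridging ligands MFGE8 and EDIL3, and the scavenger receptor CD36. The members were chosen by symbol with results of this comparison already known, so the differences between the groups are given as a description of these 8 genes and not as independent evidence. Each symbol matched 1 entry, and all 8 passed the filter on low counts.

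Control cells had been transduced with a control lentivirus and PDZK1 cells with a PDZK1 overexpression lentivirus. PDZK1 is a scaffold with PDZ domains that holds membrane transporters and receptors in place. Each group held 3 libraries, with replicates numbered 1 to 3. For all of them the multiplicity of infection was 10, and the cells were selected with 4 µg/ml puromycin and then kept in 37.5 mM glucose for 48 h. Every library was therefore from glucose-exposed, transduced and selected cells, and each group came from a single cell line with a single construct. The labels do not say whether the replicates were separate cultures, so the p-values measure only the spread between these libraries, which may be technical.

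The retinal pigment epithelium takes up the shed tips of photoreceptor outer segments every day, by the same machinery with which other cells clear apoptotic neighbours. Bridging ligands bind phosphatidylserine on the surface to be taken up and link it to a receptor. GAS6 and PROS1 dock onto the TAM receptor kinases, of which MERTK drives ingestion in this tissue, while MFGE8 and EDIL3 dock onto αv integrins through an RGD motif. CD36 binds oxidised lipids directly and takes part in the uptake of outer segments.

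In the PDZK1 libraries EDIL3 was 1.87 times its level in the control libraries, and it was the member of the 8 that passed the threshold, an adjusted p-value under 0.05 over all 14152 entries tested. GAS6 was 1.26 times its control level, with no overlap between the groups, and lay just outside the threshold. The values of TYRO3, AXL, MERTK, PROS1, MFGE8 and CD36 overlapped between the groups. AXL, PROS1, MFGE8 and GAS6 were abundant transcripts in every library, whereas MERTK and CD36 were close to the limit of what these libraries could count.

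The promoter windows of EDIL3 and GAS6 are shown because these are the genes whose groups of libraries did not overlap. They hold the 250 bases before the transcription start in RefSeq (GRCh38.p14), both on the minus strand, at chr5:84384881-84385130 for EDIL3 and chr13:113864077-113864326 for GAS6. Capitals mark GC boxes, the letters GGGCGG on either strand, where neighbouring matches may share bases.

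EDIL3: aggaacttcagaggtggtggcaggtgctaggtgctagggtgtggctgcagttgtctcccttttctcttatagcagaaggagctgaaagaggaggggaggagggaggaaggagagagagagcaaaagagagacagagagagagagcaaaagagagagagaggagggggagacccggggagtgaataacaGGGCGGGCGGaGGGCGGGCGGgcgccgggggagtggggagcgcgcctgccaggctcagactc

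GAS6: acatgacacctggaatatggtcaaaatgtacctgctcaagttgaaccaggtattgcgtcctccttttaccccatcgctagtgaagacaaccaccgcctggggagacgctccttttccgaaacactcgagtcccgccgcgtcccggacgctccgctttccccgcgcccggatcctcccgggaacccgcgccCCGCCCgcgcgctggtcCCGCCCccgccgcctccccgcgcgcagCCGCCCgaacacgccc

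The EDIL3 window held 4 GC boxes, drawn as a pair of runs close to the start, and its GC content was 61.2%. The GAS6 window held 3 GC boxes and had a GC content of 66.8%, and an exon of the divergent transcript GAS6-DT lies in it. Of 35116 RefSeq promoter windows of that length, 42.6% held a GC box, so the match is a common one. TYRO3, AXL, MERTK, PROS1 and MFGE8 also held 2 to 4 GC boxes each, and CD36 held none and 1 TATA box (TATAAA, present in 10.7% of the windows). None of the 8 windows held the letters CACGTG, the E-box that MITF binds, or TGACTCA, an AP-1 site, which were in 6.3% and 4.2% of all windows. These matches describe letters in a short window and say nothing of which factor binds there.

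The libraries held between 27970618 counts (control replicate 3) and 32804567 counts (PDZK1 replicate 2). PDZK1 itself had 19, 18 and 23 counts with the control virus and 3020, 2541 and 2828 with the PDZK1 virus, the direction that the labels give. Control replicate 3 lay lowest on the second principal component (21.5% of the variance), at -35.2 against 24.5 and 18.7 for control replicates 1 and 2. PDZK1 replicates 1 to 3 were at -16.6, -7.11 and 15.7 there. Results that rest on control replicate 3 are given with and without it. Of 10 retinal pigment epithelium markers, RPE65 and TTR had no count in any library, while MITF, OTX2, KRT8 and KRT18 had at least 1123 counts in each. RLBP1 was low at 95 to 166 counts a library, as were PMEL at 61 to 96 and TYRP1 at 30 to 56. BEST1 had 11459 counts in PDZK1 replicate 1 and 124 to 181 in the other libraries. The macrophage markers PTPRC, CD163 and AIF1 and all 4 adipocyte markers were at 0, as was CDH5 among 4 endothelial markers. The summed FPKM of the 6 macrophage markers, almost all of it from CD68, was 71.1 to 86.7 with the control virus and 67.0 to 68.8 with the PDZK1 virus. The summed FPKM of the 4 endothelial markers was 0.802 to 0.808 with the control virus and 0.595 to 0.656 with the PDZK1 virus. The part of these markers in the results was not tested. Most of the endothelial sum was from KDR, and neither CD68 (edgeR adjusted p = 0.150) nor KDR (0.131) passed the threshold used below. Every library came from 1 cell line, so these sums cannot be read as numbers of cells of a type.

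To compare genes with each other, levels were read as FPKM, which scales fragments by the length of the transcript and by library depth. PROS1 was the most abundant of the 8, at 94.8 ± 6.48 FPKM (mean ± SD over the 6 libraries), followed by MFGE8 at 81.5 ± 9.0, AXL at 79.0 ± 6.97 and GAS6 at 54.5 ± 8.06 FPKM. Each of the 4 was above at least 94.1% of the entries of the table. PROS1 was above MFGE8 within each of the 6 libraries, although their ranges over all libraries overlapped. MFGE8 and AXL overlapped in both groups, so their order was within the spread of the libraries, whereas every value of AXL was above every value of GAS6. EDIL3 at 5.07 ± 1.74 FPKM and TYRO3 at 4.28 ± 0.805 FPKM came next, about an order of magnitude below GAS6. MERTK at 0.170 ± 0.0318 FPKM and CD36 at 0.134 ± 0.0239 FPKM were lowest, and their values overlapped over the 6 libraries and in the control group. In the PDZK1 group MERTK (0.144 to 0.215 FPKM) was above CD36 (0.124 to 0.140 FPKM), both on few counts.

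**Figure D1:**
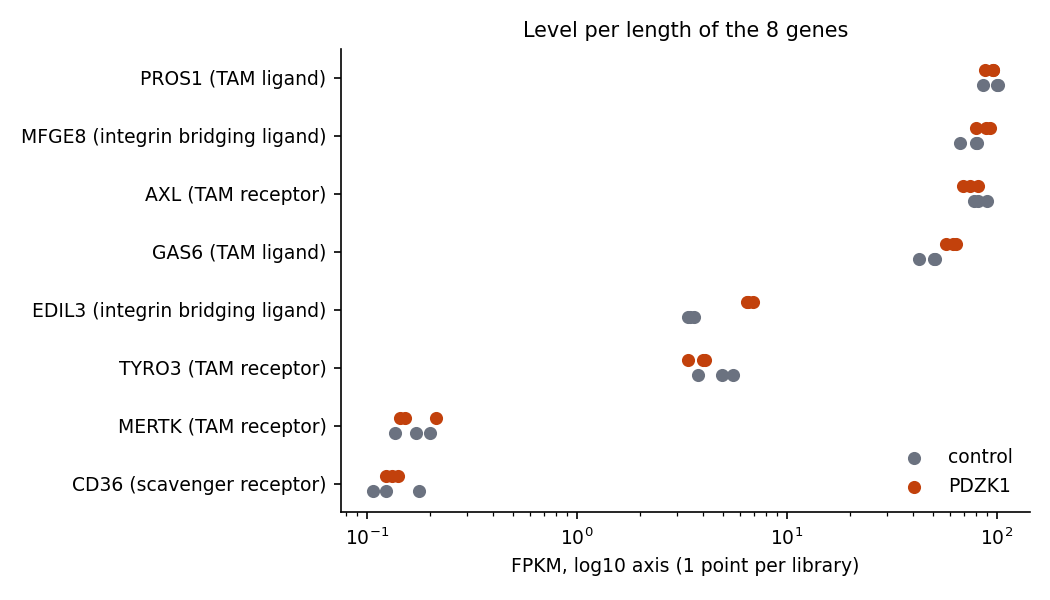
Level of each gene as FPKM on a log10 axis, with 1 point per library (grey, control; orange, PDZK1). PROS1, MFGE8, AXL and GAS6 lie between 42.6 and 102 FPKM, EDIL3 and TYRO3 between 3.38 and 6.94, and MERTK and CD36 between 0.107 and 0.215.

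The order of EDIL3 and TYRO3 was different in the 2 groups. In the control libraries TYRO3 (3.77 to 5.55 FPKM) was above EDIL3 (3.38 to 3.61 FPKM) without overlap. In the PDZK1 libraries EDIL3 (6.47 to 6.94 FPKM) was above TYRO3 (3.38 to 4.07 FPKM), again without overlap. AXL was the highest of the TAM receptors in every library, with 93.2% to 95.8% of their summed FPKM, and MERTK the lowest, with 0.146% to 0.254%.

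Differences between the groups were measured on CPM, counts scaled to library size with the TMM factors of edgeR. Adjusted p-values are from its quasi-likelihood test with Benjamini-Hochberg adjustment over all entries tested, and intervals are 95% intervals of the fitted fold change. Of the 8 genes, 1 was called higher (1.24% of all entries tested were) and 0 were called lower (2.06% of all entries). In either direction 3.3% of all entries were called. Since the genes were chosen with these results known, nothing is read from that count. DESeq2 called 2 of the 8, EDIL3 and GAS6, both higher, where it called 5.76% of all entries (2.28% higher and 3.48% lower). At an unadjusted p-value under 0.05 the edgeR fit likewise held EDIL3 and GAS6, against 16.9% of all entries (7.88% higher and 9.04% lower). Groups did not overlap for 2 of the 8 genes, both higher, and for 23.6% of all entries tested (11.4% higher and 12.1% lower). The median log2 fold change of the 8 was 0.02, and that of all entries tested was -0.00063.

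**Figure D2:**
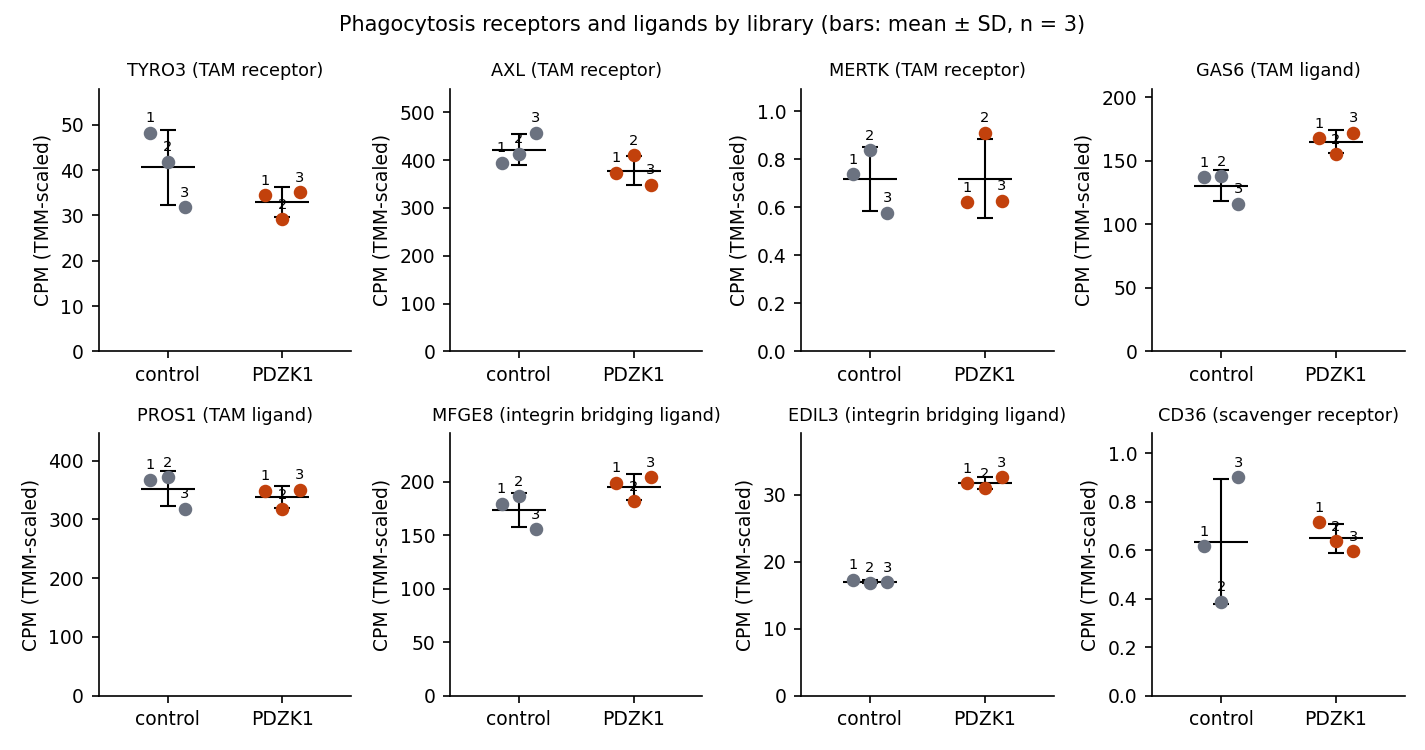
TMM-scaled CPM of each gene in each library, numbered by replicate, with the mean and SD of the 3 libraries of a group (grey, control; orange, PDZK1; each axis starts at 0). EDIL3 and GAS6 are the panels in which all 3 PDZK1 libraries lie above all 3 control libraries.

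EDIL3 (ENSG00000164176, chromosome 5, 83940554 to 84384793, minus strand) encodes a secreted protein with EGF-like repeats and discoidin domains that binds phosphatidylserine and αv integrins. It had 562, 523 and 469 counts with the control virus and 1021, 1019 and 1041 with the PDZK1 virus, or 17.3, 16.9 and 16.9 CPM against 31.7, 30.9 and 32.6 CPM. The libraries of each group were close to each other and far from the other group, and control replicate 3 did not differ from the other control libraries. The mean rose from 17.0 ± 0.249 to 31.8 ± 0.856 CPM (SD, n = 3), a log2 fold change of 0.90 with an SE of 0.056 and an interval of 0.77 to 1.03 (edgeR adjusted p = 0.000176). It was past the threshold in all 18 alternative analyses, with log2 fold changes of 0.77 to 0.92, and was 0.89 without control replicate 3. On FPKM the levels were 3.61, 3.38 and 3.48 with the control virus and 6.47, 6.53 and 6.94 with the PDZK1 virus. An antisense gene, AC113383.1, shares 173 exonic bases with EDIL3 on the opposite strand, and whether the counting used strand is not given in the sources used here.

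MFGE8 (ENSG00000140545, chromosome 15, 88898683 to 88913411, minus strand), the related ligand that links outer segments to αvβ5 integrin, was the more abundant of the pair. Its values were 179, 186 and 156 CPM with the control virus and 199, 181 and 204 CPM with the PDZK1 virus. PDZK1 replicate 2 fell within the range of the controls, and control replicate 3 was the lowest of the 6. The means were 174 ± 16.0 and 195 ± 12.0 CPM, and the log2 fold change of 0.17 (interval -0.01 to 0.34) did not pass the threshold (edgeR adjusted p = 0.323). Without control replicate 3 it was 0.09. EDIL3 made up 4.32%, 4.00% and 4.95% of the summed FPKM of MFGE8 and EDIL3 with the control virus and 6.77%, 7.59% and 6.96% with the PDZK1 virus, so MFGE8 was the main transcript of the pair throughout.

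GAS6 (ENSG00000183087, chromosome 13, 113820549 to 113864067, minus strand) encodes the vitamin K-dependent ligand that binds TYRO3, AXL and MERTK. It had 137, 138 and 116 CPM with the control virus and 168, 155 and 172 CPM with the PDZK1 virus. The lowest PDZK1 library was above the highest control library, and control replicate 3 was again the lowest of the 6. The means were 130 ± 12.3 and 165 ± 8.89 CPM, a log2 fold change of 0.34 with an SE of 0.073 and an interval of 0.17 to 0.51. The edgeR adjusted p-value was 0.0582, and it ran from 0.000278 to 0.198 over the 18 alternatives, 4 of which put GAS6 past the threshold. One of these left out the 853 assembled loci, and there the adjusted p-value was 0.0482. Another left out control replicate 3 and gave a smaller log2 fold change of 0.26 with an adjusted p-value of 0.0110. The exons of GAS6 share 421 bases with GAS6-AS1 on the opposite strand.

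PROS1 (ENSG00000184500, chromosome 3, 93873033 to 93980003, minus strand) encodes protein S, an anticoagulant cofactor that also bridges phosphatidylserine to TYRO3 and MERTK. Its values were 367, 372 and 318 CPM with the control virus and 349, 317 and 351 CPM with the PDZK1 virus. The groups overlapped, and the lowest value of each, control replicate 3 and PDZK1 replicate 2, differed little. The log2 fold change was -0.06 (interval -0.22 to 0.10, edgeR adjusted p = 0.741), which leaves room for a fold change between 0.861 and 1.07. A pseudogene, PROS2P, is 96.8% identical to PROS1 over 1953 aligned bases and has no entry in the tables used here, so how reads from it were assigned is unknown.

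The proportion of the TAM ligands was steadier between libraries than either level. GAS6 made up 33.5%, 33.2% and 33.2% of the summed FPKM of GAS6 and PROS1 with the control virus and 39.3%, 39.3% and 39.9% with the PDZK1 virus. Control replicate 3, in which GAS6 and PROS1 were both lowest among the controls, had the same proportion as its group. The means were 33.3% ± 0.174 and 39.5% ± 0.362, and their difference of 6.19 percentage points was 5.98 to 6.30 with any 1 library left out. These proportions were not tested, because they come from the contrast with which the genes were chosen.

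**Figure D3:**
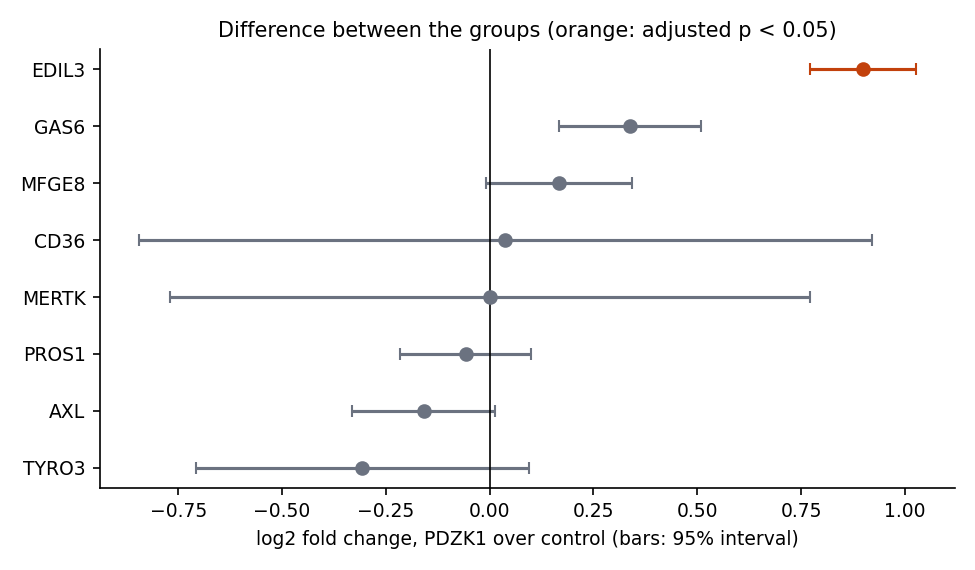
Fitted log2 fold change of PDZK1 over control for each gene, with its 95% interval (orange, adjusted p under 0.05; grey, not past that threshold). EDIL3 stands at 0.90 and GAS6 at 0.34 with intervals above 0, and the intervals of MERTK and CD36 span more than 1.5 log2 units.

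AXL (ENSG00000167601, chromosome 19, 41219203 to 41261766, plus strand), the TAM receptor kinase that binds GAS6, had 394, 413 and 457 CPM with the control virus and 374, 410 and 349 CPM with the PDZK1 virus. Control replicate 3 was the highest of the 6, and PDZK1 replicate 2 lay within the range of the controls. The means were 422 ± 32.3 and 378 ± 30.6 CPM, and the log2 fold change of -0.16 (interval -0.33 to 0.01) did not pass the threshold (edgeR adjusted p = 0.334). Without control replicate 3 it was -0.10.

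TYRO3 (ENSG00000092445, chromosome 15, 41557675 to 41583586, plus strand), the TAM receptor first known from neural tissue, had 48.3, 41.8 and 31.9 CPM with the control virus and 34.5, 29.1 and 35.1 CPM with the PDZK1 virus. Control replicate 3 fell among the PDZK1 libraries, differing by -29.2% in CPM from the mean of the other control libraries. With all 6 libraries the log2 fold change was -0.31 (interval -0.71 to 0.09, edgeR adjusted p = 0.424). Leaving out control replicate 3 gave -0.45 and put TYRO3 past the threshold (adjusted p = 0.0364), the 1 alternative of 18 in which it was. Reads of TYRO3P, 92.6% identical to TYRO3 over 2295 aligned bases and without an entry in the tables, may have been assigned to it or lost.

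MERTK (ENSG00000153208, chromosome 2, 111898479 to 112029561, plus strand), the receptor kinase whose loss in the retinal pigment epithelium blocks outer segment ingestion, had 24, 26 and 16 counts with the control virus and 20, 30 and 20 with the PDZK1 virus. These amount to 0.718 ± 0.132 and 0.720 ± 0.166 CPM, and the groups overlapped. The log2 fold change was 0.0014 with an interval of -0.77 to 0.77, which spans fold changes from 0.587 to 1.71 (edgeR adjusted p = 0.999).

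CD36 (ENSG00000135218, chromosome 7, 80369575 to 80679277, plus strand) had 20, 12 and 25 counts with the control virus and 23, 21 and 19 with the PDZK1 virus. The lowest and the highest value were both in the control group. The log2 fold change was 0.04 with an interval of -0.84 to 0.92 (edgeR adjusted p = 0.978). Its mean was slightly higher in the PDZK1 libraries on the CPM scale, at 0.649 against 0.635, and slightly lower on the FPKM scale, at 0.132 against 0.136. Counts divided by both FPKM and the library total should be constant across libraries for a gene of fixed length. For CD36 this value varied 1.44-fold, against at most 1.04-fold for the other 7.

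Several of these genes moved together in control replicate 3. Against the mean of the other control libraries, CPM there differed by -29.2% for TYRO3, -15.4% for GAS6, -14.8% for MFGE8 and -14.0% for PROS1. AXL was 13.3% higher there, and for EDIL3 the difference was -1.0%. On few counts, the difference was -26.8% for MERTK, and CD36 was 79.8% higher. Summed over the TAM receptors, FPKM were 83.7, 86.4 and 93.7 with the control virus and 78.5, 84.7 and 73.6 with the PDZK1 virus. Summed over GAS6 and PROS1 they were 151, 153 and 128 with the control virus and 158, 145 and 160 with the PDZK1 virus. The ratio of these ligand to receptor totals was 1.80, 1.77 and 1.37 with the control virus and 2.02, 1.72 and 2.17 with the PDZK1 virus, and the groups overlapped.

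**Figure D4:**
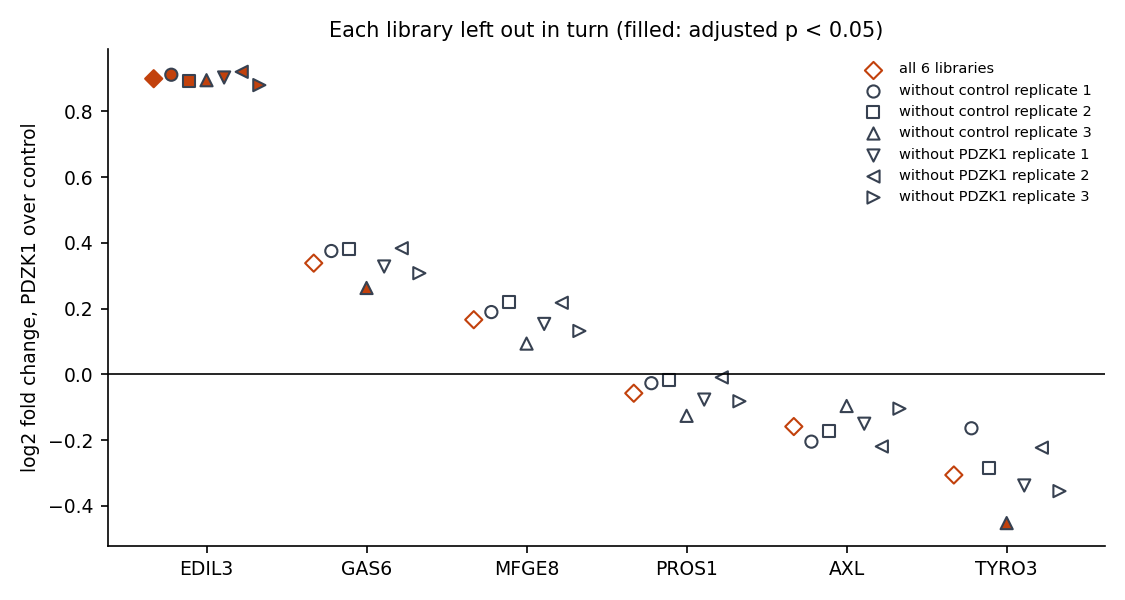
Fitted log2 fold change of the 6 genes with more than 100 counts, with all 6 libraries (diamond) and with each library left out in turn; filled symbols have an adjusted p-value under 0.05. EDIL3 is filled in all 7 fits, between 0.88 and 0.92, and GAS6 (0.26) and TYRO3 (-0.45) are filled only without control replicate 3.

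A list of 69 further genes of the uptake pathway, from other receptors to phagosome maturation, placed these genes in their setting. Of its members 58 were tested, of which edgeR called 1 higher and 0 lower, and the median log2 fold change was 0.01. At an unadjusted p-value under 0.05 there were 5 higher and 8 lower, 13 of 58 against 16.9% of all entries. The receptor genes MSR1, STAB1 and TIMD4 had no count, and ADGRB1, MEGF10, OLR1 and HAVCR1 had too few to test. DESeq2 called 3 of the 58 higher and 4 lower, against 2.28% and 3.48% of all entries. The groups did not overlap for 18 of the 58 (31.0%), 8 higher and 10 lower, against 23.6% of all entries.

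The gene past the threshold was THBS1, which encodes thrombospondin-1, a secreted protein that binds CD36, CD47 and αv integrins. Its mean was 288 ± 15.9 CPM with the control virus and 389 ± 17.1 CPM with the PDZK1 virus, a log2 fold change of 0.44 (SE 0.049, edgeR adjusted p = 0.00248), and it passed in all 18 alternatives. LRP1, an endocytic receptor for calreticulin-marked cells, was 1299 ± 41.9 and 1455 ± 19.9 CPM (log2 fold change 0.16, edgeR adjusted p = 0.0578), and passed in 7 of 18 alternatives. THBS1 belonged to a group of 8 tested genes of this list, drawn below as other bridging proteins. Not all of them link phosphatidylserine to a receptor, and calreticulin (CALR) marks the cell to be taken up. In that group 4 genes had lower values in all PDZK1 libraries than in all control libraries, as did 12.1% of all entries. None of the 4 passed the threshold with edgeR, all 4 had an unadjusted p-value under 0.05, and DESeq2 called 3 of them, PTX3, CLU and ANXA5. Of all entries, 9.04% were lower at that unadjusted p-value and 3.48% were called lower by DESeq2. PTX3 and CLU also passed in the edgeR fit without control replicate 3, at log2 fold changes of -0.77 and -0.15. With all 6 libraries, the 4 genes were the soluble pattern receptor PTX3 (log2 fold change -0.64), the chaperone CLU (-0.25), the phosphatidylserine binder ANXA5 (-0.12) and CALR (-0.09). In either direction the groups did not overlap for 5 of these 8 genes, 1 higher and 4 lower. Among the 7 tested genes of phosphatidylserine exposure they did not overlap for 4, 3 higher and 1 lower. Over all entries tested the share was 23.6%, with 11.4% higher and 12.1% lower.

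The integrin partners of MFGE8 and EDIL3 were expressed in every library. ITGAV had 496 ± 21.4 and 462 ± 19.2 CPM (log2 fold change -0.10, edgeR adjusted p = 0.295). ITGB5 had 725 ± 14.7 and 791 ± 14.1 CPM (0.12, edgeR adjusted p = 0.103), with the groups not overlapping, and passed the threshold with DESeq2 and without control replicate 3. ITGB3, the β3 partner, had 23.9 ± 10.0 and 25.98 ± 5.37 CPM, with control replicate 3 the lowest of the 6 at 12.3 CPM. Its log2 fold change was 0.12 (interval -0.97 to 1.2) with all libraries and -0.19 without control replicate 3, so the direction turned on that library. SCARB1, a relative of CD36 that is held at the membrane by PDZK1 in liver, had 147 ± 1.44 and 148 ± 2.27 CPM (log2 fold change 0.01, interval -0.06 to 0.08).

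GAS6 and PROS1 need vitamin K-dependent carboxylation of their N-terminal domain to bind phosphatidylserine. The log2 fold changes of the carboxylase GGCX and the reductases VKORC1 and VKORC1L1 were 0.05, -0.07 and 0.0026, and their 95% intervals lay within 1.5-fold, as did that of NQO1. The sheddases ADAM10 and ADAM17, which can release the ectodomains of AXL and MERTK, were at 0.06 and 0.02 on the log2 scale. Their tissue inhibitor TIMP3 was at -0.25, with the groups not overlapping (edgeR adjusted p = 0.273, unadjusted p = 0.0423). DESeq2 called TIMP3 lower (adjusted p = 0.0490), the 1 alternative of 18 in which it passed. Control replicate 3 was the highest of the 6 libraries for TIMP3, at 326 CPM. Without that library the log2 fold change was -0.15 (edgeR adjusted p = 0.322). CD47, the signal that holds back uptake, was at -0.07, and PTK2, the kinase downstream of αvβ5, at -0.05. MYO7A, the motor that carries phagosomes in this epithelium, was at -0.41 (interval -1.34 to 0.52) with all libraries and at 0.04 without control replicate 3, where it had 33.8 CPM against 15.2 to 18.7 CPM in the other libraries. None of these passed the threshold with edgeR, and none but TIMP3 had an unadjusted p-value under 0.05 or a call by DESeq2. The groups did not overlap for VKORC1 and PTK2 either, both lower in the PDZK1 libraries. Over all entries tested they did not overlap for 23.6%, with 12.1% lower. All 7 tested phagosome genes had intervals within 1.5-fold. Such intervals were common, for 49 of the 58 tested pathway genes and 10756 of the 14152 entries tested.

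**Figure D5:**
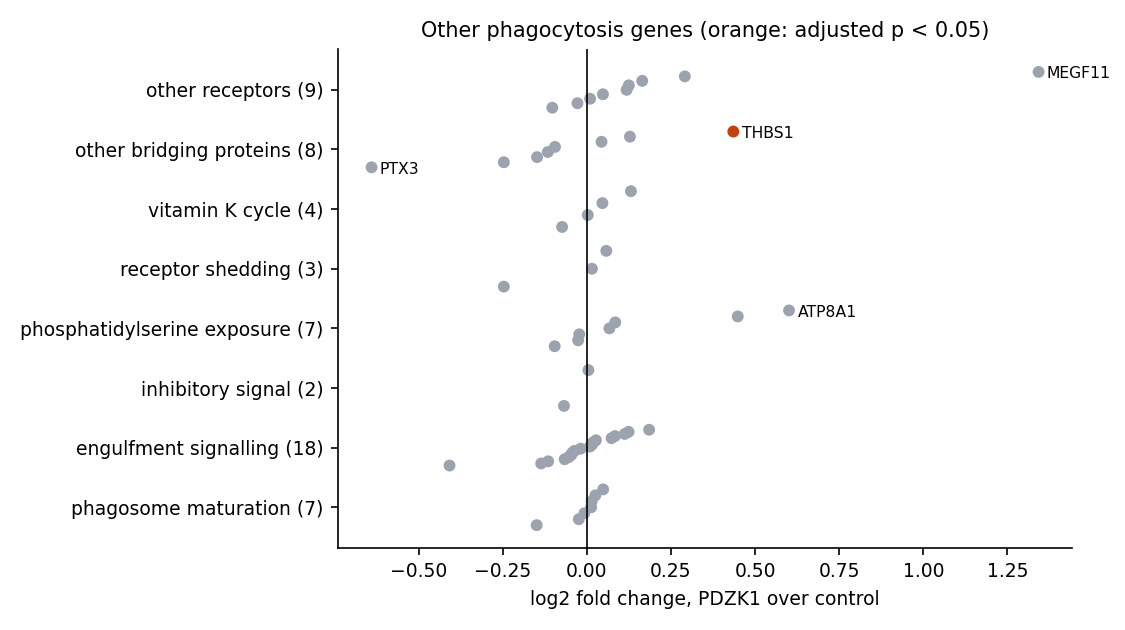
Fitted log2 fold change of PDZK1 over control for the 58 tested genes of the pathway list, in 8 groups with the number tested in brackets (orange, adjusted p under 0.05; grey, not past that threshold). THBS1 at 0.44 is the orange point, and genes beyond 0.55 in either direction are named, of which MEGF11 and ATP8A1 have low counts.

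Over the 6 libraries, the genes whose log2 CPM ran most like EDIL3 among 11093 genes of at least 5 CPM were MLPH (Pearson r = 0.998), DMPK (0.997), PDZK1 (0.997), TNS2 (0.996) and HSP90AA1 (0.996). These correlations are a description over 6 points that fall into the 2 groups, so any gene with a tight difference between the groups ranks high. MLPH, which encodes the melanosome transport protein melanophilin, had 24.4 ± 0.724 and 44.0 ± 0.929 CPM (log2 fold change 0.85, edgeR adjusted p = 0.000176), close to EDIL3 in the size of its difference. DMPK was at 0.43 on that scale, and TNS2 (0.26) and HSP90AA1 (0.13) did not pass the threshold.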

How the data were processed

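The authors deposited estimated counts as whole numbers and FPKM per gene for 6 libraries of ARPE-19 cells. Per the labels' processing notes, fastp 0.20.1, HISAT2 2.2.1 and GRCh38 were used; the counting program and its strand setting are not given in the sources used here. Each table has 3 further columns that match none of the samples and were not used. Near-identical genes can share reads.

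Entries passing filterByExpr (14152 of 21314, 507 of them assembled loci) were tested with edgeR 4.0.16 (R 4.3.3), TMM scaling and the robust quasi-likelihood test, without covariates, and the p-values were adjusted over all of them. The 3 libraries per group allow an exact permutation p-value no lower than 0.1 for a single value, so none is given. Total counts set the precision; intervals cover the spread between libraries.

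The members and the pathway and marker lists were chosen with earlier results of these data known. The rule named the 8 members, PDZK1, 13 pathway genes, pathway genes past the threshold and the 5 genes most like EDIL3; LRP1, PTX3, CLU, ANXA5, CALR, NQO1, TIMP3, MEGF11, ATP8A1 and the untested receptors were named after their values were seen. Alternatives were DESeq2 1.42.0, limma-voom (limma 3.58.1), limma on log2 FPKM with pseudocounts of 1 and 0.1 (mean FPKM of at least 0.5, or no filter), other scalings and count filters, a non-robust fit, the replicate number as a block, each library left out and, added after seeing the data, assembled loci left out. Results without the assembled loci were seen before the fit over the whole table, which follows the written design, was taken as the main one. Positions are from GENCODE 29, promoters from RefSeq, and similar genes from blastn 2.17.0 (at least 90% identity over 1000 bases).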

Additional observations from a re-analysis of the deposited data

How the results depend on the processing

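EDIL3 and THBS1 kept their direction and side of the threshold in all 18 alternatives. The 467 entries called over the whole table became 815 with DESeq2, 183, 181 and 149 with limma on log2 FPKM (pseudocount 1, 0.1, and 1 without the filter), and 149 to 749 with 1 library left out, the highest without control replicate 3. With the replicate number as a block 121 entries were called. Samples of the same number did not deviate together (residual correlations -0.09, -0.05 and -0.12, and 0 of 6 libraries correlated best with their own number). That gave no sign of pairing by number, but with 3 libraries per group it cannot exclude pairing. Under the block EDIL3 (edgeR adjusted p = 0.0104) and THBS1 (0.0314) stayed past the threshold.

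The count of 1 among the 8 genes was 2 with DESeq2, with at least 10 counts in every library and with assembled loci left out, each adding GAS6, and 1 to 3 with 1 library left out. Among the pathway genes the count of 1 was 7 with DESeq2, 2 with limma-voom, library totals only, at least 10 counts, no robust estimation and assembled loci left out, each adding LRP1, and 1 to 5 with 1 library left out. MERTK and CD36, both near 0, changed sign. MERTK was at -0.012 with limma-voom, -0.00023 with at least 10 counts and -0.0034 with the block, and -0.20 to 0.13 with 1 library left out. CD36 was at -0.0040 on log2 FPKM without the filter, and -0.22 to 0.37 with 1 library left out. Depth limits MERTK and CD36, with 12 to 30 counts a library. Among the pathway genes, ITGB3 (-0.19 to 0.33 with 1 library left out) and MYO7A (-0.60 to 0.045) changed sign without control replicate 3. SCARB1 (-0.00080 to 0.020), GGCX (-0.0013 to 0.11), VKORC1L1 (-0.025 to 0.040) and ADAM17 (-0.019 to 0.044), all near 0, also did with some library left out, and VKORC1L1 was at -0.068, -0.074 and -0.068 in the log2 FPKM fits. No alternative reversed the other 6 members, and the cause of these differences was not tested.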
